A study of Arabidopsis thaliana with 12 samples.

Results

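The genes described here are 10 inducible genes of the cytosolic and organellar heat shock response of Arabidopsis thaliana, chosen by locus out of the 32833 loci counted. They are 2 heat shock transcription factor genes, HSFA2 (AT2G26150) and HSFA7A (AT3G51910), 4 genes of large chaperones, HSP90.1 (AT5G52640), HSP101 (AT1G74310), HSP70-4 (AT3G12580) and HSP70B (AT1G16030), and 4 genes of small heat shock proteins, HSP17.4 (AT3G46230), HSP18.2 (AT5G59720), HSP21 (AT4G27670) and HSP22 (AT4G10250). Of the 10, 7 had enough counts to be tested, along with 19090 loci in all, and HSP17.4, HSP21 and HSP22 did not. The list was drawn up after a lower level of heat shock genes had been seen in these libraries, so its direction is no independent evidence.

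RNA was sequenced from stable transgenic lines of ecotype Col-0, all of which carried the herbicide resistance marker BAR. Control plants expressed GFP alone, and the other lines expressed GFP fused to Mlp37347 or to Mlp124499, candidate secreted effectors of Melampsora larici-populina, the fungus of poplar leaf rust. Each of the 3 groups had 4 libraries from pooled aerial tissue harvested at day 15 after germination from soil-grown plants kept at 22 °C with 16 h of light a day. No heat treatment is named in the labels, no source used here gives the promoter of the transgenes or the number of independent lines, and nothing says that the libraries of a group came from separately grown plants, so p-values reflect only how far these samples vary, part of which may be technical.

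Plants hold the heat shock response in reserve. Heat shock factors of the A1 class are present in unstressed cells and are held inactive by HSP70 and HSP90 chaperones. When unfolded protein draws those chaperones away, the factors are released, bind heat shock elements in promoters, and switch on chaperone genes together with further factors such as HSFA2, which prolongs the response. HSP90 matures client proteins such as kinases and immune receptors, HSP70 binds exposed stretches of unfolded chains, HSP101 pulls aggregated proteins apart, and small heat shock proteins hold unfolded proteins until they can be refolded.

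Total counts per library ran from 6645703 to 37378917, and levels are CPM, that is, counts per 1000000 after TMM scaling. The share of surviving reads that aligned was 57.6% in Control 1 and 88.0% to 95.5% elsewhere, and read pairs were aligned with a mate inner distance of 110 to 115 bp for libraries 1, 2 and 3 of Mlp37347 and of 50 to 84 bp for the rest. No 2 libraries of a group were within sampling noise of each other, but Mlp37347 1, 2 and 3 were close (chi-square per degree of freedom 2.82 to 6.27, against 154 to 208 for each of them with Mlp37347 4). Leaf markers were abundant, with a summed level of 25840 to 75335 CPM per library, as the labelled tissue has it. Their mean deviation from Control on the log2 scale was -0.52 to 0.42 in the Control libraries, 0.41 to 0.81 in Mlp37347 and -0.13 to 0.38 in Mlp124499, and its part in the results below was not tested. Root markers summed to 0 to 2.44 CPM and flower markers to 1.5 to 3.9 CPM, and all 5 root markers were at 0 counts in Control 2 and Mlp124499 3. In pooled tissue, fewer cells of a type and less RNA per cell cannot be told apart.

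In plants with Mlp37347, the heat-induced chaperone genes HSP90.1, HSP101 and HSP70-4 were lower than in Control. HSP90.1 was 7.54-fold lower, HSP70-4 4.81-fold and HSP101 2.69-fold. The factor genes HSFA2 and HSFA7A stood below every Control library too, but did not pass the test, and HSP70B and HSP18.2 did not follow. In plants with Mlp124499, HSP90.1 was 3.39-fold lower and was the only 1 of the 7 to pass, with a wide spread among the libraries. Both comparisons share the Control libraries, so they are not independent of each other.

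HSFA2, a heat-induced factor that keeps the heat shock response going, lies on chromosome 2 from 11135624 to 11137792 on the plus strand of TAIR10.1. It was a low transcript, at 3.45, 1.76, 3.42 and 1.46 CPM in Control 1 to 4, at 0.465, 0.207, 0.251 and 0.444 CPM in Mlp37347 1 to 4, and at 0.0907, 0.492, 1.08 and 5.58 CPM in Mlp124499 1 to 4. All 4 Mlp37347 libraries lay below the lowest Control library. Among the Mlp124499 libraries, 3 lay below all of Control and library 4 lay above all of it. These levels rest on 161 counts in Control, 23 in Mlp37347 and 107 in Mlp124499, of which 86 came from Mlp124499 4 and 1 from Mlp124499 1. The log2 fold change of Mlp37347 against Control was -2.83 ± 0.88 (SE, edgeR adjusted p = 0.0643), and that of Mlp124499 was -0.42 ± 0.77 (adjusted p = 0.882). HSFA2 was past the threshold in Mlp37347 in 9 of 27 other settings, among them DESeq2 (adjusted p = 0.00942), the 2 groups alone (edgeR adjusted p = 0.00587) and the fit without Mlp124499 4 (edgeR adjusted p = 0.00889).

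HSFA7A, a related heat-induced factor on chromosome 3 from 19265141 to 19266806 on the plus strand, stood at 18.6, 11.9, 11.7 and 9.01 CPM in Control and at 7.91, 7.39, 5.68 and 5.06 CPM in Mlp37347. The groups did not overlap. In Mlp124499 the libraries stood at 4.54, 8.78, 6.74 and 12.4 CPM, 3 of them below Control and library 4 within it. On the log2 scale the change was -0.96 ± 0.31 in Mlp37347 (SE, edgeR adjusted p = 0.0723) and -0.65 ± 0.31 in Mlp124499 (adjusted p = 0.329).

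Heat shock elements are built from alternating GAA and TTC units, each 2 bases apart from the next. In the 250 bases before the annotated start of 27443 protein-coding genes, GAANNTTC was found in 9.55%, TTCNNGAA in 7.68%, either in 16.1%, and 3 alternating units in 0.386%, a longer match that contains both shorter motifs. The shorter motifs read the same on both strands, and both orders of 3 units were searched. Among the 10 heat shock genes, HSFA2 had 1 match of 3 units, HSFA7A and HSP17.4 had 2 each, and HSP21 had a match of 2 units only. The window around the longest match, or around the one nearer to the start where 2 were equal, is shown for each of the 4, since it holds letters of the motif that heat shock factors are known to bind. They were read from the RefSeq annotation of TAIR10.1, whose nuclear chromosomes carry the TAIR10 sequence used for alignment, and are written 5′ to 3′ on the gene's strand with the GAA and TTC units in capitals.
HSFA2, chr2:11135528-11135556, plus strand, bases -96 to -68 from the start: ttagtaacGAAgtTTCtgGAAcattgtct
HSFA7A, chr3:19264991-19265019, plus strand, bases -150 to -122 from the start: aaaaccgtTTCcaGAAgtTTCtaatttct
HSP17.4, chr3:16984868-16984893, minus strand, bases -26 to -1 from the start: agaaacctGAAatTTCaaGAAacttg
HSP21, chr4:13820056-13820079, minus strand, bases -108 to -85 from the start: cgagtcgaGAAacTTCgtatcaaa
These letters were not in that window of HSP90.1, HSP101, HSP70-4, HSP70B, HSP18.2 or HSP22. The 3 chaperone genes that passed the test in Mlp37347 had no such match there, and HSP17.4, with 2 matches of 3 units, stood at 0 to 4 counts in every library. Of the 75 other heat shock and chaperone genes examined, HSFA7B (AT3G63350), AT1G53540, DREB2A (AT5G05410) and GOLS1 (AT2G47180) had a match of 3 units. Only exact units in the 250 bases were searched, so inexact or more distant elements would be missed. The windows of HSP90.1, HSP101, HSP70B, HSP18.2 and HSFA2 overlap a neighbouring locus. A match is a description of letters, not a test of binding.

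HSP90.1, the heat-induced member of the cytosolic HSP90 family, lies on chromosome 5 from 21352557 to 21355147 on the plus strand. It stood at 54.4, 29.9, 58.5 and 18.7 CPM in Control, at 5.67, 5.99, 5.51 and 4.08 CPM in Mlp37347, and at 4.72, 7.63, 14.4 and 20.6 CPM in Mlp124499. All 4 Mlp37347 libraries lay far below the lowest Control library and close to each other. In Mlp124499, libraries 1, 2 and 3 lay below Control and library 4 lay above Control 4. The mean fell from 40.4 ± 19.2 to 5.31 ± 0.845 CPM (SD, n = 4) in Mlp37347, which is -2.91 ± 0.46 on the log2 scale (SE, edgeR adjusted p = 0.0032). In Mlp124499 it fell to 11.8 ± 7.09 CPM (SD, n = 4), which is -1.76 ± 0.44 on the log2 scale (SE, edgeR adjusted p = 0.0404).

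HSP101, the cytosolic disaggregase needed for acquired tolerance of heat, lies on chromosome 1 from 27936508 to 27940369 on the minus strand. It stood at 28.0, 15.8, 21.1 and 12.7 CPM in Control, at 6.52, 7.02, 6.51 and 8.61 CPM in Mlp37347, and at 8.07, 8.61, 11.2 and 18.7 CPM in Mlp124499. Control and Mlp37347 did not overlap, and in Mlp124499 only library 4 reached the Control range. This made a log2 fold change of -1.43 ± 0.30 in Mlp37347 (SE, edgeR adjusted p = 0.0132) and -0.72 ± 0.30 in Mlp124499 (adjusted p = 0.236). The annotated span of AT1G74300 on the opposite strand overlaps that of HSP101 by 101 bases. Overlaps given here are of whole gene spans, introns included. No source used here says whether counting used strand.

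HSP70-4, a heat-induced cytosolic HSP70 on chromosome 3 from 3991117 to 3993886 on the minus strand, stood at 27.6, 36.8, 43.2 and 26.1 CPM in Control and at 6.35, 9.56, 5.68 and 6.12 CPM in Mlp37347. The 2 groups were well apart. In Mlp124499 it stood at 3.54, 6.89, 15.0 and 40.4 CPM, so libraries 1, 2 and 3 lay below Control and library 4 between the upper Control libraries. The log2 fold change was -2.26 ± 0.57 in Mlp37347 (SE, edgeR adjusted p = 0.0285) and -1.01 ± 0.54 in Mlp124499 (adjusted p = 0.409). Without Mlp124499 4, the fold change of Mlp124499 was -1.92 and past the threshold (edgeR adjusted p = 0.0113), as was that of HSP101, at -1.0 (adjusted p = 0.0347).

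HSP70B, another heat-induced cytosolic HSP70, did not go with HSP70-4. It stood at 12.2, 4.62, 4.63 and 6.47 CPM in Control, at 6.98, 7.33, 7.77 and 10.7 CPM in Mlp37347 and at 5.90, 5.17, 9.99 and 6.29 CPM in Mlp124499, with all groups overlapping. HSP70B changed by 0.25 ± 0.32 in Mlp37347 (SE, edgeR adjusted p = 0.678) and -0.01 ± 0.33 in Mlp124499 on the log2 scale (adjusted p = 0.994), and its sign turned under other settings in both.

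HSP18.2, a class I small heat shock protein of the cytosol, was measurable but low, with 85 counts in the 4 Control libraries together. It stood at 1.19, 1.04, 1.28 and 1.05 CPM in Control, at 1.95, 1.55, 1.75 and 0.621 CPM in Mlp37347 and at 1.90, 1.07, 1.16 and 1.56 CPM in Mlp124499. The groups overlapped, and Mlp37347 4 was the lowest library of all 12. Log2 fold changes were 0.39 ± 0.35 in Mlp37347 (SE, edgeR adjusted p = 0.535) and 0.32 ± 0.36 in Mlp124499 (adjusted p = 0.780).

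The other 3 small heat shock protein genes were hardly seen. HSP17.4, also a class I protein, had 11 counts in all: 1, 2, 3 and 0 in Control 1 to 4, 1 in Mlp37347 4 and 4 in Mlp124499 4. HSP21, the chloroplast member, had 1 count in Mlp37347 3 and 2 in Mlp124499 4, and HSP22, which enters the endoplasmic reticulum, had 0 counts in all 12 libraries. A count of 0 allows up to 3 counts, which is 0.0770 to 0.398 CPM depending on the library, for counting error only. Differences below that were not detectable at this depth. The annotated span of AT3G07365 lies opposite that of HSP17.4 over 453 bases, and the span of AT3G46220 over 60. The few counts of HSP17.4 therefore cannot be assigned with certainty.

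**Figure D1:**
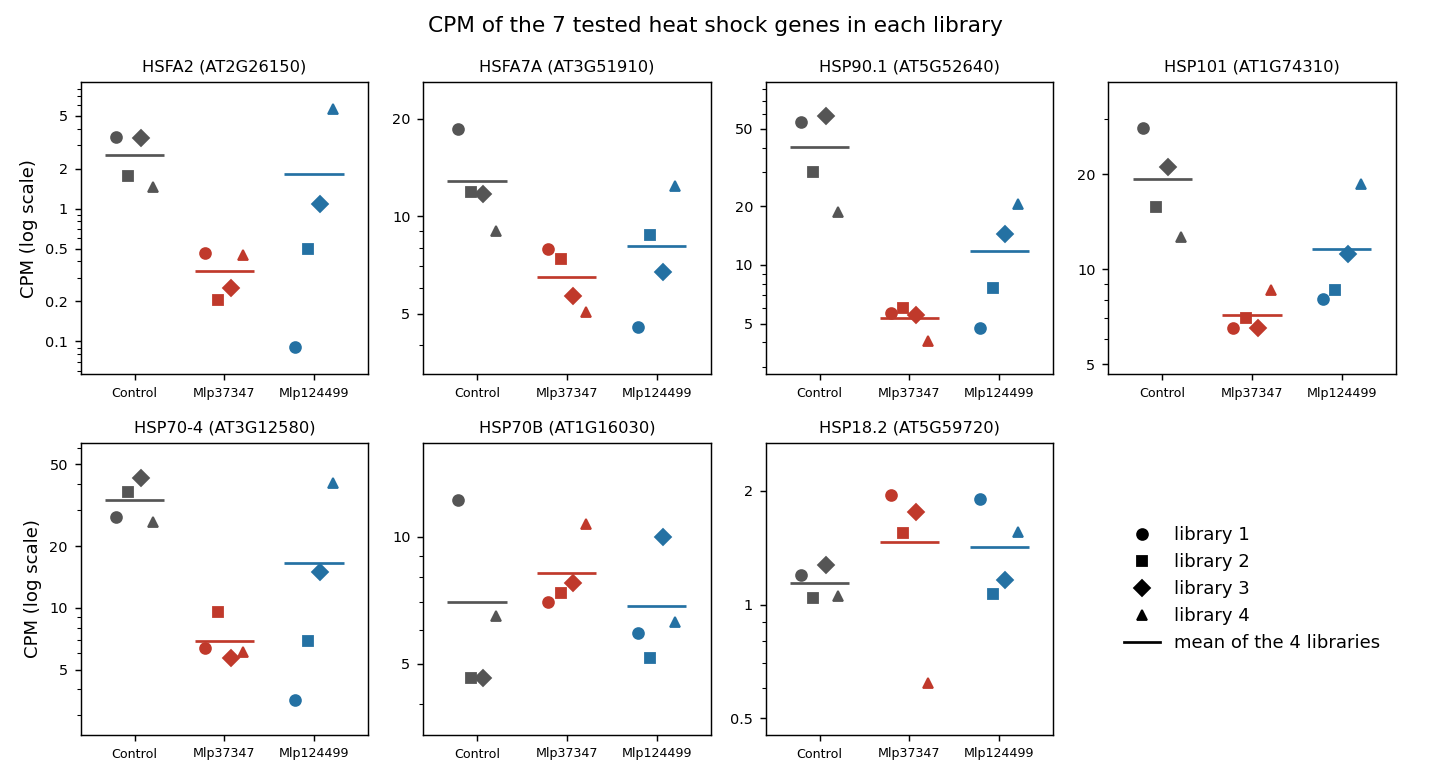
CPM (log scale) of each of the 7 tested heat shock genes in the 12 libraries, grouped by line, with marker shapes for the library number and bars for the mean of 4 libraries. For HSFA2, HSFA7A, HSP90.1, HSP101 and HSP70-4 the 4 Mlp37347 libraries sit below the 4 Control libraries, and the Mlp124499 libraries are spread more widely, with library 4 above all of Control for HSFA2 and library 1 below all of Mlp37347 for HSFA2, HSFA7A and HSP70-4.

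Read against all loci, 3 of the 7 tested heat shock genes were lower in Mlp37347 than in Control and 0 were higher, where 5.42% of the 19090 tested loci were lower and 3.19% higher. Libraries of Mlp37347 lay entirely below those of Control for 5 of the 7, against 10.8% of all tested loci. The median log2 fold change of the 7 was -1.43, beside 0.01 over all loci. In Mlp124499, 1 of the 7 was lower and 0 higher, where 2.71% of loci were lower and 1.56% higher. None of the 7 had all Mlp124499 libraries below Control, a pattern found in 6.64% of loci, and their median log2 fold change was -0.65, beside -0.01 over all loci.

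HSP90.1, HSP101 and HSP70-4 were lower in Mlp37347 in all 27 other settings, with log2 fold changes of -3.49 to -2.57, -2.03 to -1.14 and -2.70 to -2.12, and were past the threshold in 25, 20 and 17 of them. The HSP101 call was lost without any 1 of Mlp37347 1, 2 or 3 (edgeR adjusted p of 0.0523 to 0.0555). The HSP70-4 call was lost without any 1 of the same 3 libraries (edgeR adjusted p of 0.0640 to 0.0896) and without Control 2 (adjusted p = 0.0675) or Control 3 (adjusted p = 0.0770). With the 3 summed into 1 library, a setting chosen after the data were seen, 0 of the 7 passed, with HSP90.1 at -2.96 (edgeR adjusted p = 0.0745). With the libraries of long mate inner distance left out, Mlp37347 4 was the only library of its line, and its spread was assumed to be that of the other groups. HSP90.1 then was at -3.27 (edgeR adjusted p = 0.0941), HSP70-4 at -2.43 (adjusted p = 0.255) and HSP101 at -1.14 (adjusted p = 0.269). Without Control 1, the library with the low alignment rate, the same 3 genes were past the threshold. The distance and the line cannot be told apart in libraries 1, 2 and 3. Mlp37347 4, with a distance of 70 bp, stood at 4.08 CPM for HSP90.1, 6.12 for HSP70-4 and 8.61 for HSP101, where the other 3 had 5.51 to 5.99, 5.68 to 9.56 and 6.51 to 7.02 CPM. The HSP90.1 call in Mlp124499 was past the threshold in 11 of 27 other settings, with edgeR adjusted p of up to 0.152, and its log2 fold change was -2.31 to -1.5, lower in all 27. It was lost with the Control and Mlp124499 libraries alone (edgeR adjusted p = 0.0845) and without any 1 of Control 1, 2 or 3, Mlp37347 1, 2 or 3, or Mlp124499 1, 2 or 3, where the adjusted p ran from 0.0657 to 0.148.

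In the direct comparison of the effector lines, 0 of the 7 heat shock genes passed, where 1.59% of loci were lower and 1.10% higher in Mlp37347 than in Mlp124499 with edgeR. At an unadjusted p under 0.05, where 8.70% of all loci were lower in Mlp37347, 4 of the 7 were lower there: HSP90.1 (-1.15 ± 0.44, SE, edgeR adjusted p = 0.195), HSP101 (-0.71 ± 0.30, adjusted p = 0.244), HSP70-4 (-1.25 ± 0.56, adjusted p = 0.267) and HSFA2 (-2.41 ± 0.88, adjusted p = 0.172). HSFA7A differed by -0.31 ± 0.31, HSP70B by 0.26 ± 0.32 and HSP18.2 by 0.06 ± 0.35. DESeq2 called 0 as well, and voom with sample weights called HSP101 lower and HSP70B higher. With Mlp124499 4 left out no gene of the 7 was called either. A smaller response to Mlp124499 than to Mlp37347 was thus not shown for any of these genes.

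**Figure D2:**
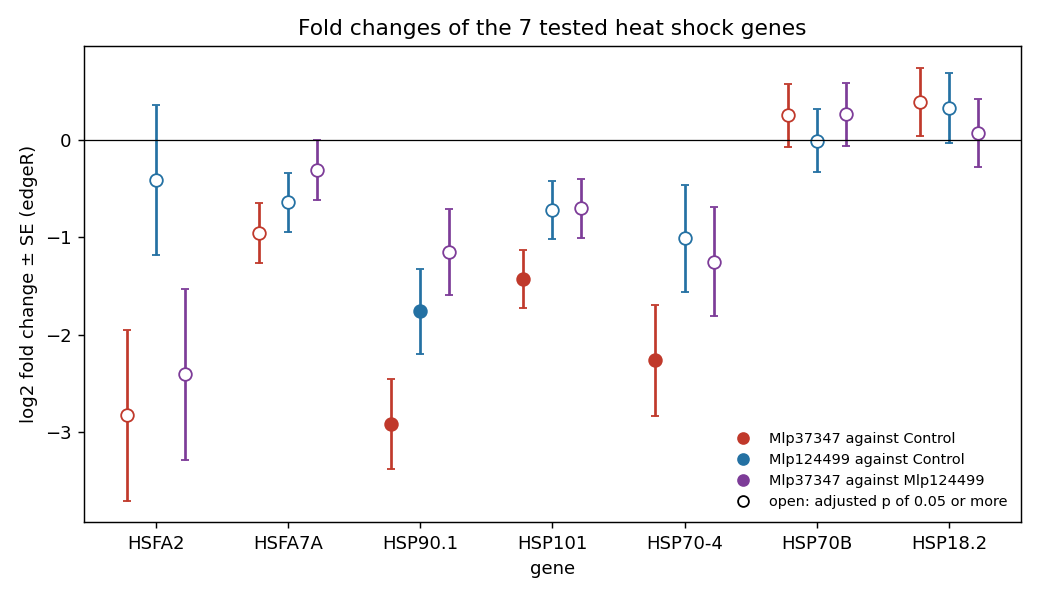
Log2 fold change with its SE (edgeR) of the 7 tested heat shock genes in the 3 comparisons, with filled points for an adjusted p under 0.05. The filled points are HSP90.1, HSP101 and HSP70-4 in Mlp37347 and HSP90.1 in Mlp124499, all below 0.

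The summed level of the 10 genes was 75.5 to 146 CPM in Control, 33.2 to 39.0 CPM in Mlp37347, and 28.8, 38.6, 59.6 and 106 CPM in Mlp124499 1 to 4. The Mlp37347 libraries were close to each other and below all of Control, and Mlp124499 4 fell inside the Control range. Spread also differed among groups, but not in the same way for all genes. The coefficient of variation of HSP70-4 was 24% in Control, 25.6% in Mlp37347 and 101% in Mlp124499, and that of HSFA2 was 42.0%, 38.6% and 140%. For both, Mlp124499 4 was the highest library of its line. In the same order, it was 47.5%, 15.9% and 60.0% for HSP90.1, 34.6%, 13.8% and 41.9% for HSP101, and 31.8%, 20.9% and 41.1% for HSFA7A. HSP70B was at 51.4%, 20.9% and 31.5%, and HSP18.2 at 9.93%, 40.0% and 27.1%.

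Over the 12 libraries, log2 CPM of HSFA2, HSFA7A, HSP90.1, HSP101 and HSP70-4 moved together, with Pearson correlations of 0.83 to 0.943 in their 10 pairs, the highest between HSP90.1 and HSP101. With group means taken out, the same pairs had correlations of 0.635 to 0.885. HSP70B and HSP18.2 had correlations of -0.260 to -0.004 with each other and with those 5, and of -0.318 to 0.463 with group means taken out. These are descriptions over 12 points that share library preparation and depth. Among 18207 other loci of at least 1 CPM, those closest to the mean pattern of the 7 genes were PFK1 (AT4G29220, r = 0.989), MOT1 (AT2G25680, r = 0.974), AT2G33250 (r = 0.968), COP1 (AT2G32950, r = 0.955), AT3G29034 (r = 0.953), HOP3 (AT4G12400, r = 0.952), AT3G14205 (r = 0.952) and HSFB1 (AT4G36990, r = 0.951). That mean gives HSP70B and HSP18.2 the same weight as the other 5, and r does not measure the size of a change. Log2 fold changes of these loci in Mlp37347 against Control ran from -2.10 (HOP3) to -0.43 (PFK1).

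Per kb of exons, HSP90.1 was the most abundant of the 10 in Control, at 19.2 ± 9.12 CPM per kb (SD, n = 4), followed by HSP70-4 at 13.3 ± 3.18, HSFA7A at 11.1 ± 3.51, HSP101 at 5.77 ± 2.00, HSP70B at 2.72 ± 1.40, HSFA2 at 1.35 ± 0.566 and HSP18.2 at 1.17 ± 0.116 CPM per kb. In this order HSP101 lay below HSFA7A, and HSP70B below HSP101, by more than either SD. Other neighbours differed by less than the larger of their SDs. Some cytosolic relatives were far above them in Control. These included HSC70-1 (AT5G02500) at 795 ± 99.8 and HSC70-3 (AT3G09440) at 91.5 ± 15.5 CPM per kb. They also included HSP90.2 (AT5G56030) at 69.3 ± 8.58 and HSP90.3 (AT5G56010) at 67.3 ± 5.18 CPM per kb. HSC70-2 (AT5G02490), at 36.8 ± 12.97 CPM per kb, had a higher mean than HSP90.1. The values of the HSC70 genes are uncertain, as described below. The cytosolic HSP90.4 (AT5G56000), at 10.4 ± 1.90 CPM per kb, had a lower mean than HSP90.1, HSP70-4 and HSFA7A.

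**Figure D3:**
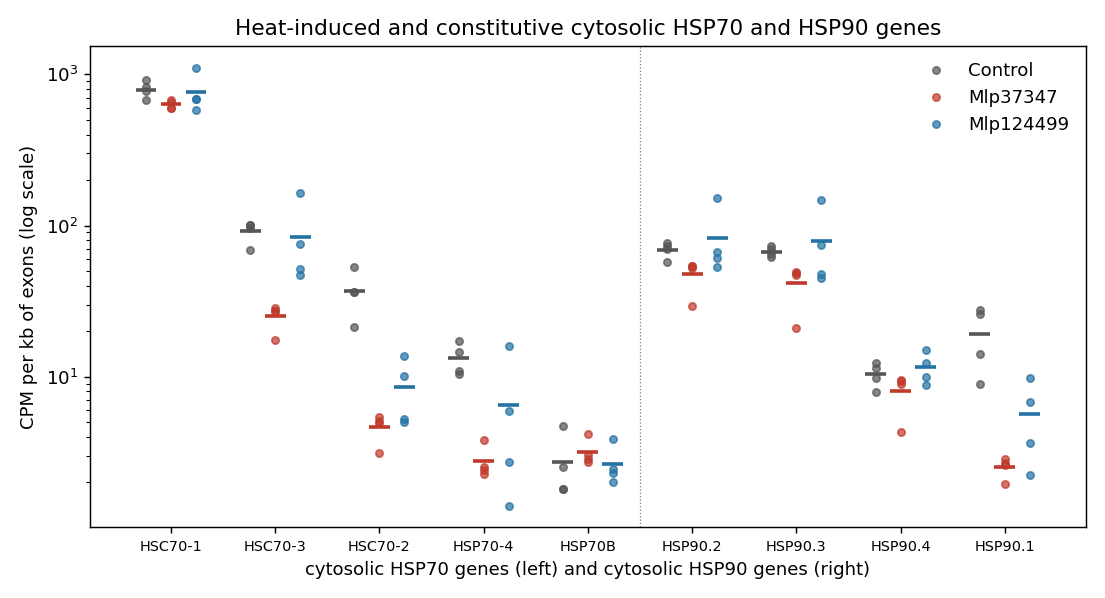
CPM per kb of exons (log scale) of the cytosolic HSP70 and HSP90 genes in Control, Mlp37347 and Mlp124499, with a point per library and a bar for the mean of 4. The Mlp37347 points of HSC70-2, HSC70-3, HSP70-4, HSP90.1, HSP90.2 and HSP90.3 lie below Control, of which those of HSP90.2 and HSP90.3 did not pass the test, while HSC70-1 stays near 795 CPM per kb in Control and 634 in Mlp37347.

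Of 62 other heat shock and chaperone genes tested, 7 (11.3%) were lower in Mlp37347 than in Control, beside 5.42% of all loci, 2 (3.23%) were lower in Mlp124499, beside 2.71% of all loci, and 0 were higher in either. The share in Mlp124499 was thus near that of all loci. Without any 1 of Control 1, 2 or 3, 4 genes were called in Mlp37347, among 768 to 1125 loci, and 3 or 4 without any 1 of Mlp37347 1, 2 or 3, among 692 to 765 loci. Without Mlp37347 4 there were 18, of which 6 were higher, among 4403 loci called, and without Mlp124499 4 there were 11 among 2395.

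Among the other HSP70 genes, 2 of 10 tested were lower in Mlp37347 than in Control and 0 were higher. They were the cytosolic genes HSC70-2 (AT5G02490) and HSC70-3 (AT3G09440). HSC70-2 stood at 89.7, 91.0, 132 and 53.1 CPM in Control, at 12.2, 13.5, 12.6 and 7.72 CPM in Mlp37347 and at 13.1, 12.4, 25.2 and 33.9 CPM in Mlp124499. Both effector lines lay wholly below Control. The log2 fold change was -2.98 ± 0.37 in Mlp37347 (SE, edgeR adjusted p = 0.0012) and -2.11 ± 0.36 in Mlp124499 (adjusted p = 0.0071), where it was the 1 called of the 10. HSC70-3 stood at 325, 310, 324 and 221 CPM in Control, at 88.0, 87.0, 92.3 and 56.7 CPM in Mlp37347 and at 165, 151, 242 and 529 CPM in Mlp124499. It was lower in Mlp37347 than in Control (-1.86 ± 0.37, SE, edgeR adjusted p = 0.0092) and than in Mlp124499 (-1.75 ± 0.36, adjusted p = 0.0249). No HSP70 gene was called in the direct comparison without any 1 of Mlp37347 1, 2 or 3 or without Mlp124499 3. HSC70-1, the most abundant of the family, had log2 fold changes of -0.33 ± 0.22 in Mlp37347 (edgeR adjusted p = 0.386) and -0.05 ± 0.22 in Mlp124499 (adjusted p = 0.956). The coding sequences of these 3 genes are near copies, and reads shared between them could be split or lost by the counting. The annotated spans of AT3G09430 and AT3G02205 also overlap that of HSC70-3. The values of these 3 genes are therefore uncertain.

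Of the 6 other HSP90 genes tested, 0 passed in any comparison. HSP90.2 and HSP90.3, the constitutive cytosolic forms, had log2 fold changes of -0.54 ± 0.32 and -0.70 ± 0.37 in Mlp37347 (SE, edgeR adjusted p = 0.318 and 0.256) and of 0.27 ± 0.32 and 0.23 ± 0.37 in Mlp124499 (adjusted p = 0.802 and 0.864). For both genes all 4 Mlp37347 libraries lay below the lowest Control library. HSP90.2 was at 84.3 CPM in Mlp37347 4, where the other 3 libraries had 150 to 156 CPM, and at 436 CPM in Mlp124499 4, where the other 3 had 154 to 193 CPM. HSP90.3 was at 55.0 CPM in Mlp37347 4, where the other 3 had 123 to 128 CPM, and at 126, 117, 195 and 386 CPM in Mlp124499. The organellar ClpB genes CLPB3 and CLPB4, relatives of HSP101, did not pass in any comparison.

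Of the other heat shock factors, 14 of 19 were tested, and 2 were lower in Mlp37347 than in Control. HSFB1 (AT4G36990), a heat-induced factor without an activation domain that acts as a repressor, stood at 89.9, 36.7, 67.9 and 24.9 CPM in Control, at 13.2, 17.41, 15.1 and 12.9 CPM in Mlp37347 and at 13.2, 15.2, 25.6 and 35.2 CPM in Mlp124499. Mlp37347 lay below all of Control, by -1.90 ± 0.40 on the log2 scale (SE, edgeR adjusted p = 0.0129), while Mlp124499 overlapped it, at -1.29 ± 0.39 (adjusted p = 0.0894). HSFA4A (AT4G18880) was lower in Mlp37347 by -0.74 ± 0.21 (SE, edgeR adjusted p = 0.0477). Mlp37347 1, 2 and 3 stood at 9.99, 10.6 and 9.35 CPM, but Mlp37347 4, at 15.53 CPM, was barely below Control 4, at 15.54 CPM. Of the A1 class factors that start the response, HSFA1D (AT1G32330) was lower in Mlp124499, at 7.90 to 9.27 CPM against 11.2 to 19.1 CPM in Control. Its log2 fold change was -0.80 ± 0.18 (SE, edgeR adjusted p = 0.0284), and it was the 1 called of the 14 there. The call was lost with the replicate block, with Mlp37347 1, 2 and 3 summed and at an adjusted p of 0.01. Further settings are given below. In Mlp37347 HSFA1D was at -0.52 ± 0.18 (edgeR adjusted p = 0.0932), and the difference between the effector lines did not pass (adjusted p = 0.477). HSFA1A (AT4G17750), HSFA1B (AT5G16820) and HSFA1E (AT3G02990) had log2 fold changes of -0.23, 0.44 and -0.34 in Mlp37347 and of -0.16, 0.51 and 0.10 in Mlp124499, and none of these 3 passed. HSFA7B had 0, 1, 1 and 1 counts in Control 1 to 4 and 0 in each of the 8 effector libraries, too few for a test or a difference to be seen.

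Of the 10 genes induced with the heat response, 9 were tested. In Mlp37347, 2 were lower than in Control and 0 higher. HOP3 (AT4G12400), a heat-induced co-chaperone that links HSP70 to HSP90, fell from 7.69 ± 4.23 to 1.75 ± 0.404 CPM (SD, n = 4; log2 fold change -2.10 ± 0.45, SE, edgeR adjusted p = 0.0139) with no overlap. MBF1C (AT3G24500), a transcriptional coactivator of heat tolerance, was lower by -1.85 ± 0.48 (SE, edgeR adjusted p = 0.0327), with Mlp37347 4 at 3.19 CPM above Control 4 at 2.64 CPM. HSA32 (AT4G21320), needed to keep acquired heat tolerance, was at 0.17 ± 0.37 (edgeR adjusted p = 0.818). Of the 9, 6 had a log2 fold change below 0 in each effector line against Control. The highest was that of BAG6 (AT2G46240), at 1.14 ± 0.48 in Mlp37347 (SE, edgeR adjusted p = 0.160) and 1.26 ± 0.48 in Mlp124499 (adjusted p = 0.193). With edgeR, 0 of the 9 passed in Mlp124499 and 0 in the direct comparison. Of the 12 general co-chaperone genes 1 was lower in Mlp37347 and 0 in Mlp124499. It was J2 (AT5G22060), a DnaJ-type partner of HSP70, at 45.4, 45.5, 52.4 and 43.2 CPM in Mlp37347 against 59.4 to 151 CPM in Control (log2 fold change -1.14 ± 0.29, SE, edgeR adjusted p = 0.0284). The annotated spans of HOP3, MBF1C and J2 are each overlapped by those of loci on the opposite strand.

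Of the 15 other small heat shock protein genes 9 were tested, and 0 passed in any of the 3 comparisons with edgeR. Their median log2 fold change was -0.69 in Mlp37347 and -0.17 in Mlp124499. AT4G21870, the most abundant of them per kb in Control, stood at 22.0, 20.4, 21.6 and 28.5 CPM in Control, at 121, 96.5, 102 and 2.31 CPM in Mlp37347 and at 2.18, 2.79, 3.72 and 73.1 CPM in Mlp124499. In both effector lines library 4 lay on the other side of Control from libraries 1, 2 and 3.

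**Figure D4:**
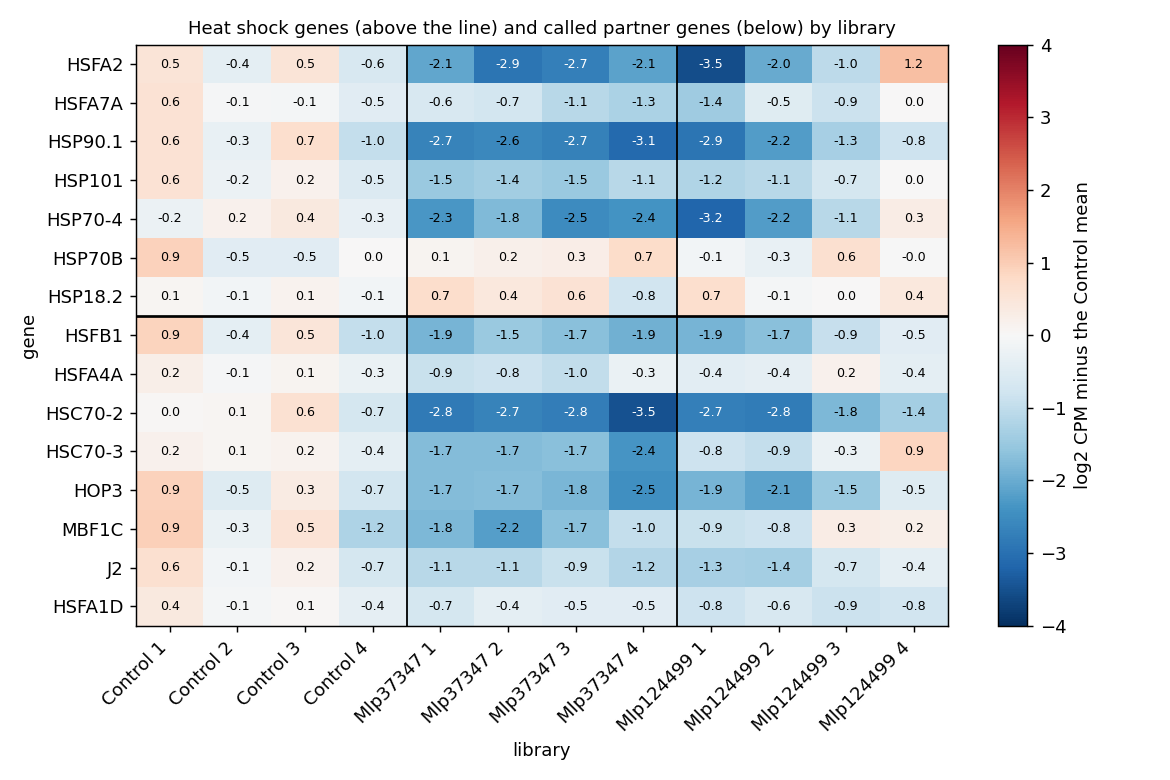
Log2 CPM (prior count 2) minus the mean of the Control libraries for the 7 tested heat shock genes (above the line) and the pathway genes called in any comparison (below), by library. The Mlp37347 columns are below 0 for HSFA2, HSFA7A, HSP90.1, HSP101, HSP70-4 and the genes below the line, and Mlp124499 4 is closer to 0 than Mlp124499 1 for most of them.

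The libraries also differed in time-of-day genes. Of 9 clock genes, 4 were higher and 1 lower in Mlp37347, and 3 were higher in Mlp124499, among them PRR5 (AT5G24470), with log2 fold changes of 5.91 in Mlp37347 (edgeR adjusted p = 0.0045) and 5.08 in Mlp124499 (adjusted p = 0.0116). The mean deviation of the 9 from Control on the log2 scale lay between 0.49 and 0.55 in libraries 1, 2 and 3 of Mlp37347 and at 2.20 in library 4, while that of the 7 heat shock genes was -1.38 to -1.20 and -1.44. In Mlp124499 the clock genes were at 1.39 to 1.46 in libraries 1, 2 and 3 and at 0.23 in library 4, and the heat shock genes at -1.67, -1.21, -0.63 and 0.15. These means are signed and mix genes that lay above and below Control. LHY, a morning gene, stood at 372 to 516 CPM in Control, at 22.0, 19.2, 24.1 and 92.6 CPM in Mlp37347 and at 82.0, 91.7, 66.1 and 470 CPM in Mlp124499. PRR5, a gene of the later day, stood at 0.470 to 2.41 CPM in Control, at 40.4, 62.3, 40.7 and 192 CPM in Mlp37347 and at 64.3, 64.1, 59.2 and 1.75 CPM in Mlp124499. The part of harvest time in the levels of the heat shock genes was not tested.

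**Figure D5:**
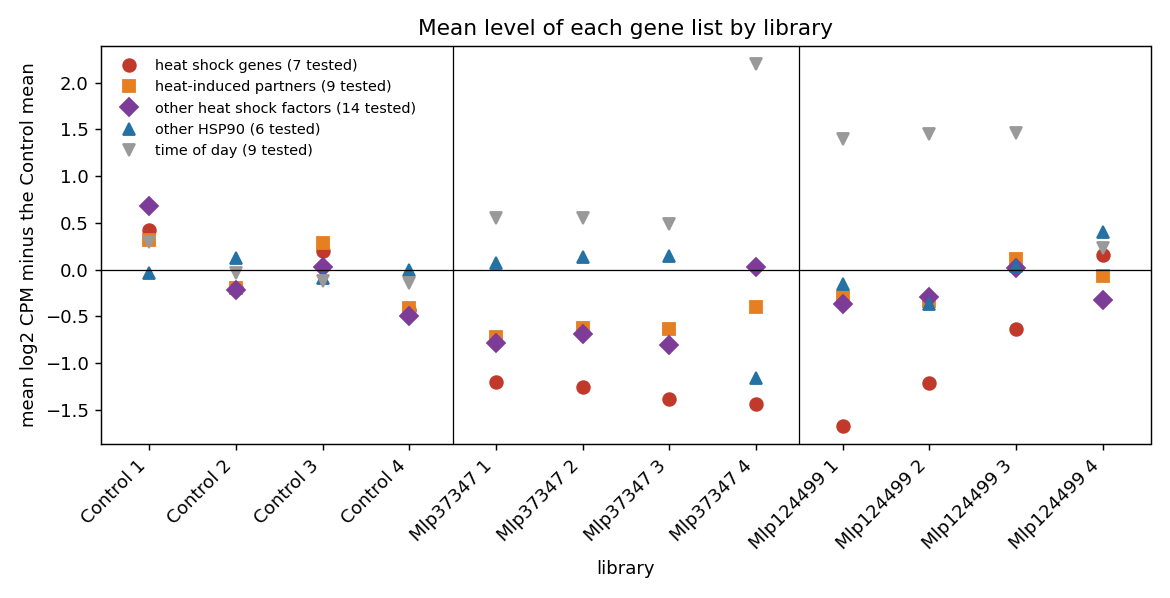
Mean log2 CPM minus the Control mean, by library, over the tested genes of 5 lists. The 7 heat shock genes lie at -1.44 to -1.20 in Mlp37347 and spread from -1.67 to 0.15 in Mlp124499, and the clock genes, a signed mean over genes above and below Control, lie at 2.20 in Mlp37347 4 and 0.23 in Mlp124499 4.

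With both effector libraries numbered 4 left out, 5 of the 7 heat shock genes were lower than Control in Mlp37347 and 4 in Mlp124499. Of the 19232 loci tested there, 15.9% and 10.5% were lower, among 6243 and 3741 called in either direction. That setting also raised calls across all loci, so the counts of the 7 are given beside it and not read alone.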

How the data were processed

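The authors deposited counts, as whole read pairs for each TAIR10 transcript locus. Per the design text of the series, supplemented by the submitters' processing notes, the authors trimmed paired reads of 100 nt (TruSeq Stranded mRNA, 100 ng of total RNA) with Trimmomatic, aligned them with TopHat2 2.0.14 with a mate inner distance set per library, and counted overlaps with GenomicAlignments (union mode, R 3.2.5). The sources used here do not give whether strand was used or how reads with several alignments were handled. A deposited table of other values per library gives surviving and aligned reads and the mate inner distance.

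Here, counts of the 12 libraries (6645703 to 37378917 in total, which limits the precision of genes under 1 CPM) were TMM-scaled with edgeR 4.0.16 (R 4.3.3), and 19090 loci passing filterByExpr entered 1 quasi-likelihood fit with a coefficient per group. Benjamini-Hochberg adjustment ran over all of these p-values, with a threshold of 0.05. Every adjusted p is from edgeR unless DESeq2 or voom is named. The SE is the absolute log2 fold change over the square root of F, and CPM are computed here from the counts. CPM per kb uses the length of all RefSeq exons. Gene names, exons and promoters come from RefSeq's TAIR10.1 annotation, to which 99.1% of loci matched. Groups come from the titles.

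The genes, lists and tests were chosen with earlier results of these data known. Each of the 10 genes is named, with the 2 lowest and 2 highest called genes of at least 1 CPM per pathway list, a fixed set of regulators and relatives, and the 8 loci most like the genes' mean pattern. AT4G21870, BAG6, HSP90.4, CLPB3, CLPB4 and the genes with 3 promoter units were named after their values were seen. Alternatives were other scalings, filters and tests (DESeq2 1.42.0, limma 3.58.1 voom), a replicate block, stricter thresholds, leaving out libraries, and, chosen after seeing the data, summing Mlp37347 1, 2 and 3.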

Additional observations from a re-analysis of the deposited data

Results flagged for a closer look

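None of the 21 groups of 4 libraries of the 7 tested heat shock genes held a library apart from the other 3 by Dixon's criterion at 95%, a gap to the nearest library of over 0.83 of the group's range. The 2 nearest to it were HSP70-4 in Mlp37347, with library 2 at 9.56 CPM and the others at 5.68 to 6.35 CPM (0.828 of the range), and HSFA2 in Mlp124499, with library 4 at 5.58 CPM and the others at 0.0907 to 1.08 CPM (0.819 of the range). Among the 90 groups of 4 screened over 30 named genes, 12 did, where chance gives about 1 in 20. In Mlp37347 4, HSFA1B was at 39.2 CPM (13.8 to 14.4 in the other 3), HSFA1E at 10.6 CPM (2.69 to 3.59), HSFB2A at 18.46 CPM (3.84 to 6.15) and HSA32 at 4.70 CPM (2.17 to 2.53), all high, while HSC70-3 at 56.7 CPM (87.0 to 92.3), HSP90.2 at 84.3 CPM (150 to 156) and HSP90.3 at 55.0 CPM (123 to 128) were low. In Mlp124499 4, HSP90.2 was high at 436 CPM (154 to 193) and HSFB2B at 10.2 CPM (4.18 to 5.0). HSFA4A was high at 21.1 CPM in Mlp124499 3 (13.9 to 14.68), HSFA1A at 13.3 CPM in Control 1 (6.50 to 7.29), and HSC70-3 was low at 221 CPM in Control 4 (310 to 325).

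The effector lines differed in HSC70-3 itself, which was lower in Mlp37347 than in Mlp124499 by a log2 fold change of -1.75 (edgeR adjusted p = 0.0249). It was not called with the 2 groups alone, with the replicate block or with Mlp37347 1, 2 and 3 summed. The call was also lost at an adjusted p of 0.01 and against a fold of 1.5. Its values are uncertain, as described above.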

How the results depend on the processing

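Of the heat shock genes' results under 27 other settings, 471 kept their direction and their side of the threshold, 35 lost the call, 29 gained it and 31 changed sign, all of the last in genes that were not called. The cause was not tested. Other scalings moved the median log2 fold change of all loci in Mlp37347 against Control from 0.01 to -0.19 (total counts), -0.45 (traditional reference genes) and -0.16 (array-selected reference genes), and the share of calls that were higher from 37.0% to 15.6%, 7.67% and 15.3%. In Mlp124499 against Control that share went from 36.4% to 32.3%, 26.52% and 21.8%, and in the direct comparison from 40.9% to 18.8%, 13.8% and 28.4%, with medians of -0.07, -0.26 and -0.16 and of -0.13, -0.20 and -0.01.

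In Mlp37347 against Control, 3 of the 7 heat shock genes and 1644 loci were called. There were 5 of the 7 with total counts, with traditional reference genes and with the 2 groups alone, 5 and 2795 loci with DESeq2, 7 (5 lower, 2 higher) and 10898 with voom, and 5 and 6243 without both effector libraries numbered 4. There were 1 and 466 at an adjusted p of 0.01, 1 and 454 against a fold of 1.5, 0 and 591 with a mate inner distance under 100 bp (1 Mlp37347 library, assumed to vary like the other groups), and 0 and 83 with Mlp37347 1, 2 and 3 summed. In Mlp124499 against Control, 1 of the 7 and 815 loci were called. There were 0 and 528 with traditional reference genes, 0 with the 2 groups alone and with the short distance, 0 and 225 at 0.01, 0 and 235 against the fold of 1.5, 0 and 453 with the summed library, 5 and 6909 with voom, 4 and 3741 without both libraries numbered 4, and 1497 loci with DESeq2. In the direct comparison, 0 of the 7 and 513 loci were called. Loci called were 312 with traditional reference genes, 1370 with DESeq2, 156 with the 2 groups alone, 4981 without both libraries numbered 4, 117 at 0.01, 97 against the fold of 1.5 and 25 with the summed library, and voom called 2 of the 7 and 10370 loci.

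Leaving out each library gave 1 to 5 of the 7 and 692 to 4403 loci in Mlp37347, 0 to 3 of the 7 and 256 to 1878 loci in Mlp124499, and 0 of the 7 and 151 to 2802 loci in the direct comparison. The 7 went to 2 without Control 2 or 3, to 1 without Mlp37347 1, 2 or 3, and to 4 and 5 without Mlp124499 1 and 4. In Mlp124499 they went to 3 without library 4 of that line.

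Same-numbered libraries had correlations of -0.386 to 0.090 between their deviations, with the lowest for Mlp37347 4 and Mlp124499 4. No shared shift in the same direction was seen by number. A pairing in which lines shift in opposite directions cannot be told from these values. With the replicate block, 2 of the 7 and 802 loci were called in Mlp37347, 0 and 321 in Mlp124499, and 156 loci in the direct comparison. HSP70-4 had an adjusted p of 0.0577 in Mlp37347 with the block (edgeR), and HSP90.1 one of 0.122 in Mlp124499.

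In Mlp37347, HSP70B was at -0.39 and HSP18.2 at -0.004 with traditional reference genes, and HSP18.2 at -0.84 with the short distance. In Mlp124499, HSP70B was at 0.011 with DESeq2 size factors, 1e-04 without a filter, 0.013 with DESeq2, 0.17 with voom, 0.011 with the 2 groups alone, 0.026 with the block, 0.090 without both libraries numbered 4, 0.021 with the short distance, 0.039 with the summed library, and -0.25 to 0.38 with a library left out. In the direct comparison, HSP18.2 was at -0.052 with total counts, -0.12 with traditional reference genes, -1.19 with the short distance, -0.20 with the summed library and -0.11 to 0.29 with a library left out. There, HSP70-4 was at 0.19 and HSFA7A at 0.035 with voom, and HSFA7A at 0.061 without both libraries numbered 4. The counts of HSFA2 and HSP18.2 limit what can be seen of them, and HSP17.4, HSP21 and HSP22 were too low to test.

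Of the 62 other heat shock and chaperone genes tested, 7 were called in Mlp37347, with 1 to 37 under other settings, 2 in Mlp124499, with 1 to 33, and 1 in the direct comparison, with 0 to 26. Among their lists in Mlp37347, the factors, heat-induced partners and co-chaperones called were 2, 2 and 1. They went to 0 each with the block, with the summed library and at an adjusted p of 0.01. The other HSP70 genes called went from 2 to 1 with the summed library. In Mlp124499 the HSFA1D call was lost with the block, with the summed library and at an adjusted p of 0.01. Only 1 of the other heat shock and chaperone genes was called there with traditional reference genes, with the 2 groups alone and against the fold of 1.5. The same held without any 1 of Control 1, 2 or 3, Mlp37347 1, 2 or 3, or Mlp124499 1, 2 or 3.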
